A study of Drosophila melanogaster with 3 samples.

Results

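The chemoreceptor genes of Drosophila melanogaster were taken as all protein-coding genes of the Ensembl annotation whose symbol is Or, Gr or Ir followed by digits and letters, together with Orco. They numbered 180 of the 13945 protein-coding genes on the 6 main chromosome arms, with 60 odorant receptor genes (Or, Orco included), 60 gustatory receptor genes (Gr) and 60 ionotropic receptor genes (Ir). The protein E(z) was located on DNA by ChIP-seq, which sequences the fragments precipitated with a protein, in whole prepupae of unknown age with males and females pooled. All animals came from a transgenic line in which GFP is fused to the C-terminus of E(z), so every library carries the tagged protein. The sample descriptions name an antibody against GFP for the precipitation, while the antibody field names E(z). There were 3 biological replicates of 1 group and no second condition, so no contrast between conditions was possible. Whole animals mix all cell types, no expression was measured, and no cell type could be checked against its markers. Fewer cells with a bound gene and weaker binding per cell cannot be told apart.

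E(z) is the catalytic subunit of Polycomb repressive complex PRC2, which methylates histone H3 on lysine 27 and marks chromatin for repression by Polycomb group proteins. In flies the complex is recruited to Polycomb response elements, where DNA-binding proteins such as Pho, GAGA factor, Zeste and Combgap bind. Odorant receptors work in olfactory neurons as complexes with the co-receptor Orco. Gustatory receptors detect sugars, bitter compounds and carbon dioxide. Ionotropic receptors, relatives of glutamate receptors, detect acids, amines, taste compounds, temperature and humidity with co-receptors such as Ir8a, Ir25a, Ir76b and Ir93a. An olfactory neuron typically uses 1 or very few receptors, and many receptor genes lie in tandem arrays.

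A gene was counted when a peak's summit, the position of its highest enrichment, lay within 1 kb of one of its transcription start sites (TSSs). The DNA under the few summits that met this at receptor genes is shown first, since the counts below turn on these places. The windows are 300 bases around the summit, cut to 245 bases at Or9a where an exon began, and hold no exon of a protein-coding gene. They are read from dm6 (the RefSeq copy of genome release 6), 5′ to 3′ on the strand of the receptor gene. Capitals mark GAGAG (the GAGA factor word), GCCAT (Pho), TGAGTG (Zeste) and GTGTGTG (Combgap) on either strand. Ir94h, Gr77a and Ir67c are shown because their summits were in the authors' final list, which also held one at Ir48b, whose window is not printed here. Gr32a and Or9a are shown, with the summit of replicate 1, because strong replicate peaks lay there and none did in the authors' combined lists. Ir94h is at chr3R:23486811-23487110, plus strand. Gr77a is at chr3L:20739549-20739848, minus strand, and Ir67c at chr3L:10434231-10434530, minus strand. Gr32a is at chr2L:11113166-11113465, plus strand, and Or9a at chrX:10460491-10460735, minus strand.
Ir94h: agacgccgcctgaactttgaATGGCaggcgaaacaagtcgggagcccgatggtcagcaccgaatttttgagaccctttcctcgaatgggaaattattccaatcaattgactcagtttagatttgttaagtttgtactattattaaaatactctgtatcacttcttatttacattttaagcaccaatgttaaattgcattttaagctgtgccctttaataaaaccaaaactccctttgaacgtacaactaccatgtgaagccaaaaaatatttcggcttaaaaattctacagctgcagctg
Gr77a: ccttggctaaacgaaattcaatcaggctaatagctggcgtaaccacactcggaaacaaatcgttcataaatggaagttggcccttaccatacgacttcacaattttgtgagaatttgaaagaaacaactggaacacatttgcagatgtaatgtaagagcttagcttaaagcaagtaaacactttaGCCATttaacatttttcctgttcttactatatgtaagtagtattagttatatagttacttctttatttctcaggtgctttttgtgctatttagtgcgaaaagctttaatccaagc
Ir67c: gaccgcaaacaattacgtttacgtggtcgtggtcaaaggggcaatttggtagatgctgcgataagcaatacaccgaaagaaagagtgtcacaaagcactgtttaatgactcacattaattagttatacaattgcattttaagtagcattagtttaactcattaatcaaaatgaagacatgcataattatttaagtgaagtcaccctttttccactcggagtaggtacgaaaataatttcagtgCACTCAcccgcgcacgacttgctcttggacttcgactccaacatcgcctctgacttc
Gr32a: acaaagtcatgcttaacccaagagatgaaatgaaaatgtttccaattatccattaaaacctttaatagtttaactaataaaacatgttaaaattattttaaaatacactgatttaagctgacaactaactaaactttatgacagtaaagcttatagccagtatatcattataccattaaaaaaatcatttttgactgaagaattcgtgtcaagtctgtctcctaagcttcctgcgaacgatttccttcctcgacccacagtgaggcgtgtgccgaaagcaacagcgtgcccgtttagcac
Or9a: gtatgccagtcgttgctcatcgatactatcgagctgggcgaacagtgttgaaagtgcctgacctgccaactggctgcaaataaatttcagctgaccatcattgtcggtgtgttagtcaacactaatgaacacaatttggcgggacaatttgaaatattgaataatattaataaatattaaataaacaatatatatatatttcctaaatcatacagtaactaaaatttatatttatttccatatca
The windows of Ir94h and Gr77a each held 1 GCCAT, that of Ir67c held 1 TGAGTG, and those of Gr32a and Or9a held none of the 4 words. The window of Ir48b held the most, with 1 GAGAG and 2 GCCAT, and had a GC content of 49.0%, beside 34.7 to 40.0% in the other 5 windows. A matching word is a description of the letters and does not show a bound site.

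Receptor genes seldom had a summit at the start. In the optimal list, the authors' 5623 peaks that passed a threshold on reproducibility, 4 of the 180 genes had a summit within 1 kb (2.22%, exact 95% binomial interval 0.609 to 5.59%), beside 16.1% of all protein-coding genes. These were 3 ionotropic receptor genes (5.0%), 1 gustatory receptor gene (1.67%) and none of the 60 odorant receptor genes, where a count of 0 gives an interval up to 5.96%. In the pooled list of 30000 relaxed peaks, which the authors made from the joined replicates and which holds background regions, 23 receptor genes had a summit (12.8%, interval 8.28 to 18.6%), beside 35.2% of all genes. They were 12 odorant, 3 gustatory and 8 ionotropic receptor genes. The median rank of the receptor genes' best pooled peak, counted from the highest signal, was 18180, beside 6433.5 for all genes with a pooled summit. The intervals cover the counting of genes only, and since neighbouring genes can share a peak they are too narrow. Depth is unknown from peak lists. No test over genes was run, and shares are given as a description beside the share over all genes.

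The low count was seen in each replicate. Among the 5623 highest-signal peaks of each replicate, 5 receptor genes had a summit in replicate 1, 5 in replicate 2 and 3 in replicate 3. The same lists marked 16.6, 16.9 and 19.7% of all genes. The mean was 2.41% ± 0.641 of receptor genes and 17.7% ± 1.71 of all genes (SD, n = 3), so the gap was wider than the spread between replicates. By family the mean share was 1.67% ± 1.67 for odorant, 1.67% ± 1.67 for gustatory and 3.89% ± 1.92 for ionotropic receptor genes (SD, n = 3), and the families did not differ beyond that spread. In the full relaxed replicate lists of 30000 peaks, 29, 25 and 24 receptor genes had a summit in replicates 1, 2 and 3, beside 37.3, 38.2 and 43.7% of all genes. The mean there was 14.4% ± 1.47 of receptor genes and 39.7% ± 3.46 of all genes (SD, n = 3).

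**Figure D1:**
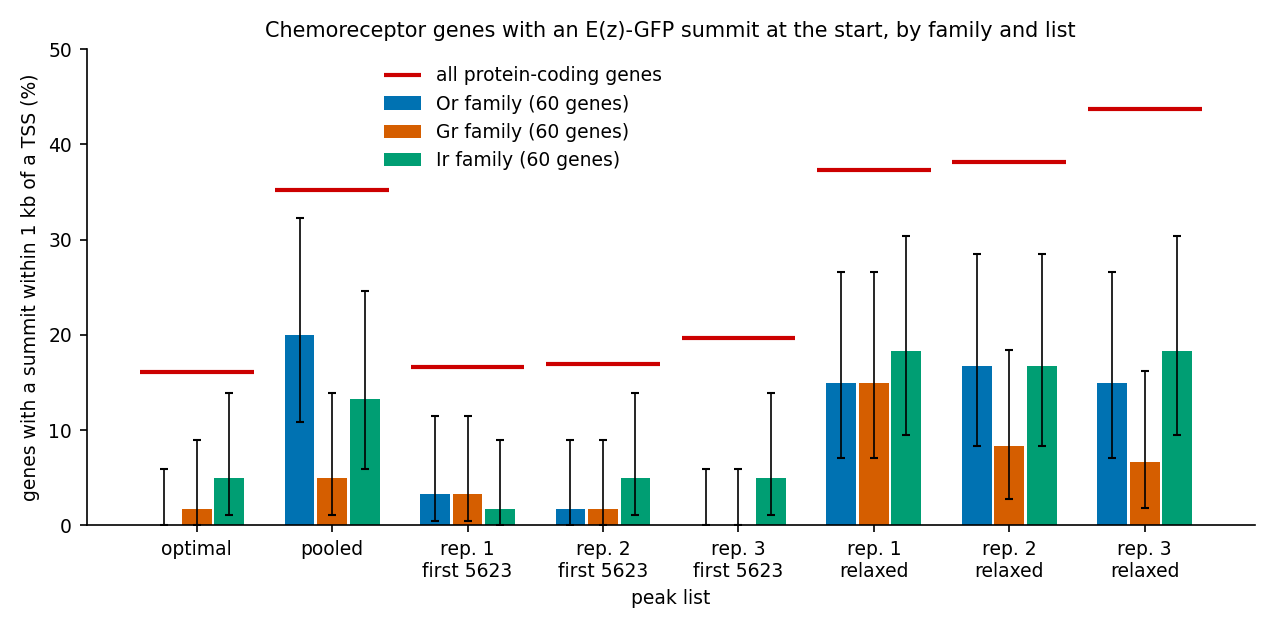
Share of genes in percent with a summit within 1 kb of a TSS, for the optimal list, the pooled list, the 5623 highest-signal peaks of each replicate and the full relaxed list of each replicate. Bars are the 3 receptor families with exact 95% binomial intervals and red lines are all protein-coding genes; every bar lies below its red line, from 16.1% in the optimal list to 43.7% in the relaxed list of replicate 3.

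The receptor genes that did have a relaxed peak were rarely the same in all replicates. A summit lay at the start of 52 receptor genes (28.9%) in at least 1 relaxed replicate list and at 8 (4.44%) in all 3, while 56.0% and 25.9% of all genes met these conditions. Of the genes with a summit in any replicate, 15.4% of receptor genes and 46.2% of all genes had one in every replicate. A further 34 receptor genes had a summit in 1 replicate and 10 in 2 replicates, and 128 had none. Within the 5623 highest-signal peaks, 8 receptor genes (4.44%) had a summit in some replicate, beside 25.5% of all genes. Ir94h alone (0.556%) had one in all 3, beside 11.1% of all genes.

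Ir94h, an ionotropic receptor gene at the end of the Ir94f, Ir94g and Ir94h array on 3R, had the highest-ranked summit of all receptor genes. Its peak at chr3R:23486848-23487029 lay in intergenic DNA with the summit 540 bp upstream of the only annotated TSS. It ranked 788 in the optimal list, and its ranks of 1077, 664 and 881 in replicates 1, 2 and 3 lay close together (mean 874 ± 206.6, SD, n = 3). The replicate summits lay 510, 584 and 539 bp upstream, so all 3 fell within the printed window. Ir94f, at the other end of the array, had only a relaxed summit 414 bp upstream, with pooled rank 9777 and replicate ranks 9623, 20587 and 13254. Ir94g had none within 1 kb in the pooled list or any replicate.

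The other 3 genes of the optimal list ranked in its lower part. Ir48b, an ionotropic receptor gene on 2R whose nearest other TSS was that of the FGF ligand gene pyr at 9814 bp, had its summit 627 bp upstream in intergenic DNA. Its rank was 4290 in the optimal list and 6034, 4042 and 4218 in replicates 1, 2 and 3 (mean 4764.7 ± 1102.8, SD, n = 3). Replicates 2 and 3 placed it within the first 5623.

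Gr77a, a gustatory receptor gene, lies within an intron of CG13252 on the opposite strand, and its summit lay 269 bp upstream of its TSS in that intron. It ranked 4424 in the optimal list and 3278, 8353 and 9587 in replicates 1, 2 and 3 (mean 7072.7 ± 3343.7, SD, n = 3). Only replicate 1 placed it within the first 5623. The start of CG13252 itself, 8839 bp away, had another optimal summit at 245 bp, of rank 5160.

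Ir67c, which forms a pair with Ir67b, had its summit 276 bp upstream in intergenic DNA. It ranked 5549 of 5623 in the optimal list and 6528, 4667 and 10923 in the replicates (mean 7372.7 ± 3212.4, SD, n = 3). Its deposited −log10 q-value of 2.87 was the lowest of the optimal list, whose highest value was 3.97. Each of the 4 genes was the gene of the nearest TSS to its summit, had 1 annotated TSS, and had no other gene's TSS within 2 kb. Within the first 5623 peaks, Gr77a was found in replicate 1 only and Ir67c in replicate 2 only. Ir48b was found in replicates 2 and 3 and Ir94h in all 3. In a stricter setting, optimal peaks were kept only when found in both remaining replicates' first 5623 peaks. Then 2 genes were left without replicate 1, 1 without replicate 2 and 1 without replicate 3. In the same order the list shrank to 3550, 3473 and 4080 peaks. The share of all genes also fell from 16.1%, to 11.0% at the lowest. Ir94h was kept in all 3 cases.

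Below the optimal list the pooled ranks began at 8950, for the odorant receptor gene Or88a. Its summit lay 696 bp upstream, but nearer to the TSS of CG12402, at 428 bp. Its replicate ranks were 4821 in replicate 1 and 12481 in replicate 3, with no summit in replicate 2. Orco, the co-receptor gene, had pooled rank 10866 with the summit 902 bp upstream of a TSS in intergenic DNA. Its ranks of 15264, 12937 and 11593 (mean 13264.7 ± 1857.3, SD, n = 3) were alike in all 3 replicates and all beyond the first 5623.

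Among ionotropic receptor genes, Ir60a followed at pooled rank 12258, inside an intron of nord, and Ir85a at 12843, inside introns of Pif1A and Pif1B. Ir60a had a summit in replicates 2 and 3 and Ir85a in replicates 1 and 3. Ir52a and Ir10a came near the end of the list, at 26234 and 27068. Among odorant receptor genes, Or67a had pooled rank 14204, 145 bp downstream of its TSS, and a summit in every replicate. The best ranked 17770, 9723 and 11471 in replicates 1, 2 and 3, at 362 bp downstream, 146 bp downstream and 361 bp upstream. Or65a followed at 16567, Or67c at 20775, Or47a at 23396, Or22b at 26775 and Or98b at 27301. Or22b had no summit in any replicate list. Or10a and Gr10a, which are annotated on the same span of the X chromosome with a shared TSS, both took their rank of 18180 from 1 summit 985 bp upstream, found again in replicate 1 only. They count as 2 genes with 1 peak.

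**Figure D2:**
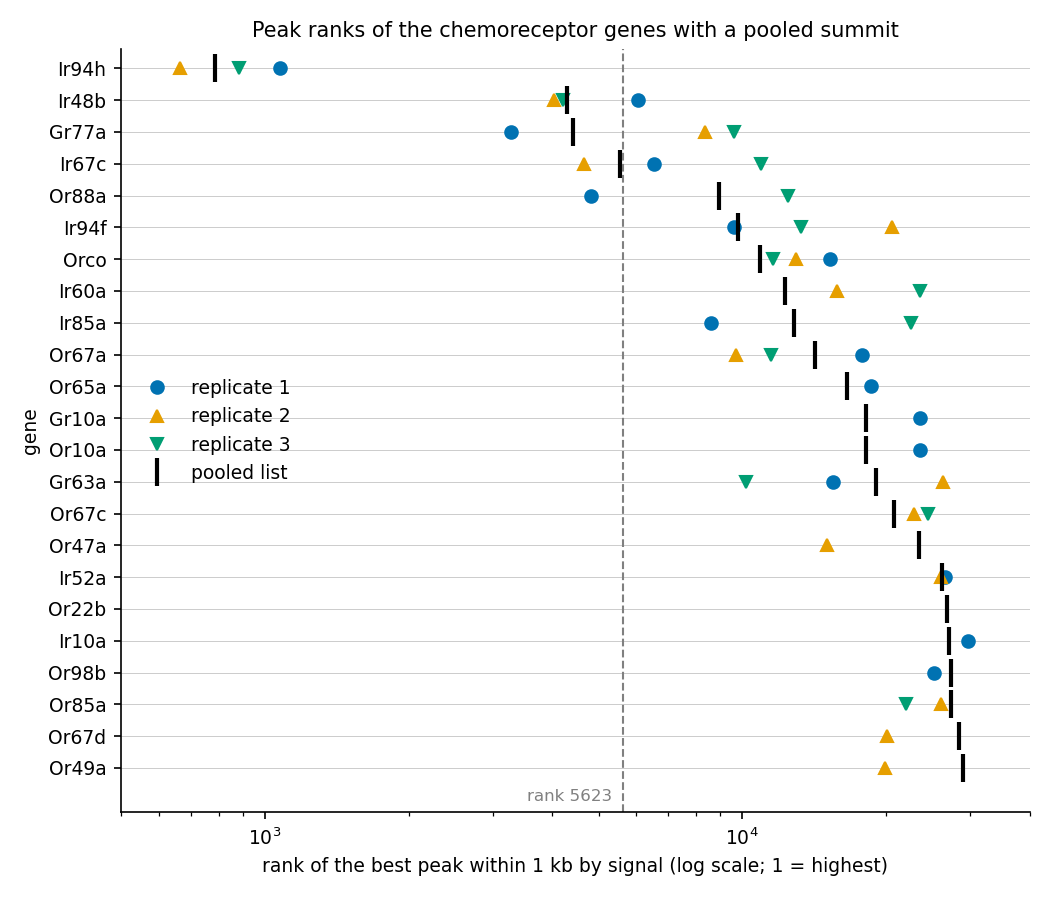
Rank by signal (log scale, 1 is the highest) of the best peak within 1 kb of a TSS for the 23 receptor genes with a pooled summit, in the pooled list (black bars) and in each replicate (symbols; no symbol where a replicate had no summit). Ir94h lies at 664 to 1077 in all 3 replicates, Ir48b, Gr77a and Ir67c scatter around the dashed line at rank 5623, and most other genes lie beyond 10000 with 1 or more replicates missing.

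The best pooled summits of the 23 genes lay mainly in front of the genes. They were upstream of the nearest TSS of the gene at 20 genes and downstream at 3, and 17 were intergenic. Their median distance to the TSS was 540 bp, and 4 lay within 250 bp. These places were not counted over all genes with a pooled summit, so they are not shown to be particular to receptor genes. At 20 genes the nearest TSS was counted as the receptor gene's own. The TSS shared by Or10a and Gr10a was counted for Or10a only. At Or88a and Gr63a another gene's TSS was nearer.

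The receptor genes were also read by class, from the co-receptors to the kinds of ligand. The classes hold 2 to 25 genes, and no class was tested against other genes. Of the 5 co-receptor genes, none had an optimal summit and Orco had a pooled one. Distances to the nearest optimal summit were 14870 bp for Ir8a, 2573 bp for Ir25a, 56858 bp for Ir76b, 26030 bp for Ir93a and 17375 bp for Orco. Of the carbon dioxide receptor pair, Gr63a had a pooled summit of rank 19064, 223 bp upstream of its TSS and 74 bp from that of Lamtor4. Its best peaks within 1 kb ranked 15478, 26373 and 10181 in replicates 1, 2 and 3. They lay 686 bp downstream, 15 bp upstream and 230 bp upstream, and replicate 1 had another of rank 18555 at 315 bp upstream. Gr21a had only a peak of rank 23667 in replicate 2.

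None of the 9 sugar receptor genes had a summit in the optimal or the pooled list. The trehalose receptor gene Gr5a came closest, with an optimal summit 1393 bp from its TSS. Tre1, whose TSS is 640 bp from that of Gr5a, lies on that side. In replicate 3 a peak of rank 5921 lay 692 bp upstream of Gr5a, in the 5′UTR of Tre1 and 52 bp from the Tre1 TSS. For Gr61a the nearest optimal summit was 9780 bp away and for the fructose receptor gene Gr43a 20685 bp. The 6 genes Gr64a, Gr64b, Gr64c, Gr64d, Gr64e and Gr64f form an array of 10.8 kb, and their distances rose along it from 9816 bp at Gr64a to 18846 bp at Gr64f. Gr64b and Gr64c share a TSS, as do Gr64d and Gr64e, so they are not separate measurements.

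Of 5 common bitter receptor genes, 6 temperature and humidity receptor genes and 16 antennal ionotropic receptor genes, none had a summit in the optimal or the pooled list. Of 25 odorant receptor genes used by larvae, none had an optimal summit and 2 had a pooled one (8.0%), beside 16.1 and 35.2% of all genes. Some genes are in more than 1 class.

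Genes of the same sensory system that are no receptors were read in the same way. Among 52 odorant binding protein genes, which encode secreted carriers of odorants, 2 had an optimal summit (3.85%) and 13 a pooled one. Obp99b had optimal rank 1357 and replicate ranks of 2723, 1044 and 722, and Obp83g had 1562 and 1450, 2055 and 1497. Among 20 CheA and CheB genes, none had an optimal and 7 a pooled summit (35.0%), the latter near the 35.2% of all genes. Of 8 SNMP and pickpocket genes, 1 had an optimal and 1 a pooled summit (12.5% each). The optimal one, of rank 2803, lay at ppk29, a channel gene of pheromone-sensing neurons. Among 70 genes for cuticle proteins of the RR type, another family in arrays, 4 had an optimal (5.71%) and 25 a pooled summit (35.7%), the latter near the background of 35.2%.

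Of 18 transcription factor genes that act in olfactory neurons or their precursors, 14 had an optimal summit (77.8%) and 16 a pooled one (88.9%). The highest-ranked were zf30C at 542, dac at 1232, pdm3 at 1280 and Xbp1 at 1687. In the replicates, zf30C ranked 839, 452 and 614 (mean 635.0 ± 194.4, SD, n = 3), and pdm3, a POU factor that regulates odorant receptor choice, ranked 2023, 1101 and 615. Many of these factors also act in the development of other organs. The 18 are well-studied regulators and were listed with earlier results of these data known, so their share is a description. Beside it, the shares of all genes were 16.1 and 35.2%.

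**Figure D3:**
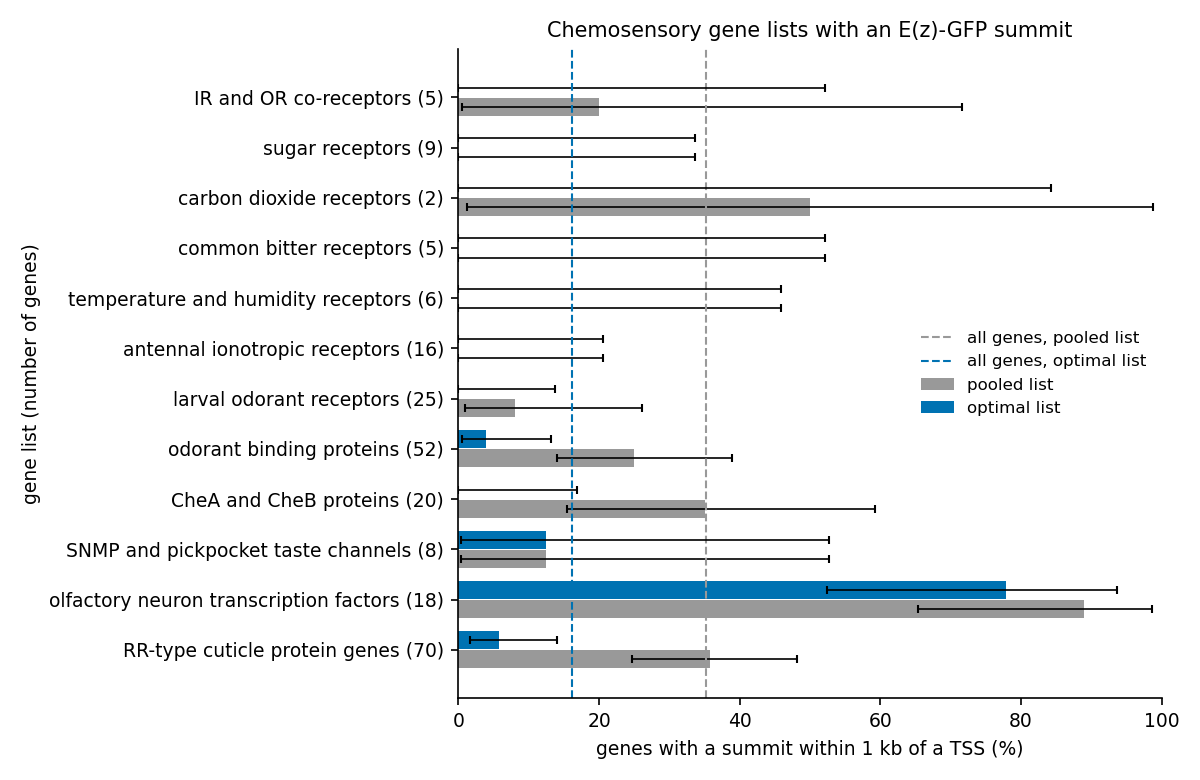
Share of genes in percent with a summit within 1 kb of a TSS in the optimal list (blue) and the pooled list (grey) for 7 classes of receptor genes and 5 other lists, with exact 95% binomial intervals and the number of genes in brackets. Dashed lines are all genes, at 16.1% and 35.2%; the transcription factor list lies above both, at 77.8% and 88.9%, and the receptor classes have no blue bar.

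Receptor genes also lay farther from optimal summits than 1 kb shows. The median distance from a TSS to the nearest optimal summit was 19.6 kb over the receptor genes and 10.9 kb over all genes. It was 20.2 kb for odorant, 19.0 kb for gustatory and 20.1 kb for ionotropic receptor genes. A median above that of all genes was also seen for odorant binding protein genes, at 17.7 kb, and RR-type cuticle protein genes, at 12.6 kb. It was 9.5 kb for CheA and CheB genes, 6.4 kb for SNMP and pickpocket genes and 0.1 kb for the transcription factor genes. With the first 5623 peaks of each replicate in place of the optimal list, the medians were 20203.5, 17625.5 and 19021 bp for receptor genes and 9851, 10146 and 8825 bp for all genes, with no overlap. An optimal summit lay within 5 kb of 13.3% of receptor genes and 32.0% of all genes, within 20 kb of 50.6 and 68.7%, and within 100 kb of 96.1 and 96.6%. So 89 receptor genes (49.4%) had none within 20 kb, beside 31.3% of all genes. The farthest, named after their values were seen, were Ir41a, at 579 kb, Ir40a, a humidity receptor gene, at 173 kb, Gr39b at 132 kb, Or35a at 124 kb and Or13a at 106 kb.

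**Figure D4:**
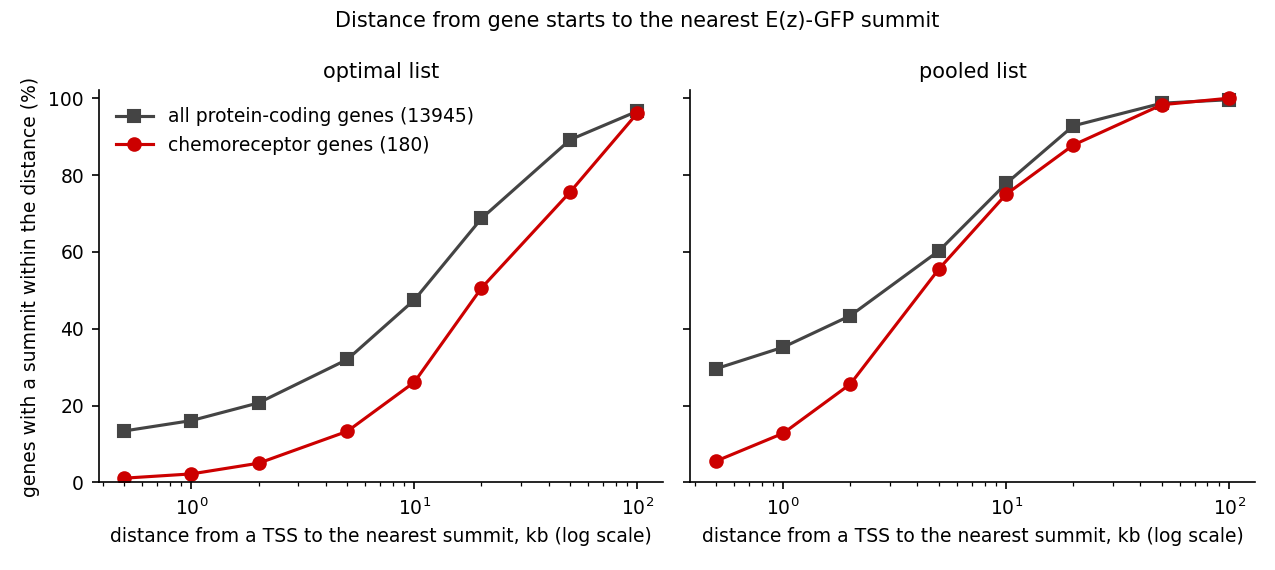
Share of genes in percent that have a summit within the distance on the horizontal axis (kb, log scale) of a TSS, in the optimal list (left) and the pooled list (right), for the 180 receptor genes and all 13945 protein-coding genes. In the optimal list the curves stand apart up to 50 kb (75.6 and 89.2%) and meet at 100 kb (96.1 and 96.6%), while in the pooled list they come close at 5 kb (55.6 and 60.3%).

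At the border of 1 kb, the farthest counted gene was Ir48b at 627 bp. The next were Gr89a, a common bitter receptor gene, at 1373 bp, Gr5a at 1393 bp and Gr97a at 1698 bp. No receptor gene had an optimal summit between its start and its end, beside 11.6% of all genes, whose median length of 2166 bp was larger than the 1691.5 bp of receptor genes.

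Receptor genes stood more alone than other genes. Another protein-coding gene's TSS lay within 1 kb for 35 receptor genes (19.4%), beside 42.9% of all genes, and the median distance to it was 2145.5 bp beside 1375 bp. A single annotated TSS was found for 92.8% of receptor genes and 73.5% of all genes, and a gene with fewer start sites has fewer places to be counted. Of the 35 genes with a close neighbour, none had an optimal summit and 4 had a pooled one (11.4%), beside 18.4 and 33.0% of all such genes. Of the 145 without, 4 had an optimal (2.76%) and 19 a pooled summit (13.1%), beside 14.5 and 36.9%. Among genes with neither a close neighbour nor a second TSS, 4 of 136 receptor genes (2.94%) had an optimal summit, beside 9.28% of all such genes, and 13.2 beside 29.5% had a pooled one. The lower share was thus seen on both sides of the split, and the part that number and spacing of start sites have in it was not tested.

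Measured from the end of one receptor gene to the start of the next along the chromosome, 79 receptor genes formed 28 arrays with gaps of at most 5 kb. Of these 79, 2 had an optimal and 8 a pooled summit. Of the 101 single genes, 2 had an optimal and 15 a pooled one. The shares over all genes were 16.1 and 35.2%, and a difference between arrays and single genes was not tested. The arrays of Gr64a to Gr64f and Gr22a to Gr22e, and that of Ir7c to Ir7g, had neither; Gr22 and Ir7 genes were named after their values were seen.

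Of the 180 receptor genes, 24 lay inside a gene of another kind, 20 of them on the opposite strand, and some of the 24 are also in arrays. An optimal summit within 1 kb of a start was found at 7 of their 23 host genes and at 1 of the 24 nested receptor genes, Gr77a, beside 16.1% of all genes, and no difference between these counts was tested. Or85a, picked after its values were seen, lies in Poxm, a paired-box gene whose start had an optimal summit of rank 203, yet the nearest optimal summit to Or85a was 12433 bp away, and its pooled rank was 27328. Ir60a lies in nord, whose start had one of rank 3148, and was itself 8336 bp from the nearest.

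Read from the summits, 21 optimal summits (0.373% of 5623) had a receptor gene as the nearest protein-coding TSS at any distance. Receptor genes make up 1.29% of the genes and hold 1.03% of the TSSs. The 21 summits fell to 11 genes, and 13 were found within the first 5623 peaks of all 3 replicates. Only 4 lay within 1 kb. The following loci were picked after their values were seen. Gr93a, Gr93b and Gr93d on 3R took 9 of the 21, at 2.19 to 5.11 kb and with ranks from 647 to 5406, and 6 of the 9 were found in all 3 replicates. The best, of ranks 647 and 1202, lay between Gr93d and glec, a gene for a glial carbohydrate-binding protein whose own start had a summit of rank 2432 close by. None of the 4 Gr93 genes, which span 14.2 kb and include the caffeine receptor gene Gr93a, had an optimal or pooled summit within 1 kb. Or67d, the receptor gene for the male pheromone cis-vaccenyl acetate, took 4, at 41.9 to 58.7 kb, and the noncoding genes lncRNA:CR46006 and mir-276b were nearer to them. Gr89a took 1 of rank 1873 at 1373 bp and Or45b 1 of rank 2227 at 1929 bp, both intergenic and both found in all 3 replicates.

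A few receptor genes had strong replicate peaks that the combined lists did not hold, and they too were picked after their values were seen. At Gr32a, a receptor gene for bitter compounds and a pheromone, peaks ranked 1816 in replicate 1 and 2230 in replicate 2, with summits 698 and 788 bp upstream, and replicate 3 had none. The TSS of Idua was nearer, at 255 and 165 bp. The nearest pooled summit to Gr32a was 7159 bp away. At Or9a the summits lay 965 and 966 bp upstream in replicates 1 and 2, with ranks of 4487 and 4680 and the TSS of Neb-cGP 95 and 94 bp away. Replicate 3 had a peak of rank 4424 just outside the limit, at 1084 bp. The pooled list had no summit within 25590 bp of Or9a. Ir60e had a peak of rank 3510 in replicate 3 alone, 791 bp upstream and 49 bp from the TSS of CG13585. Over the whole genome, 244, 262 and 516 of the first 5623 peaks of replicates 1, 2 and 3 lay in no pooled peak. The shares were 4.34, 4.66 and 9.18%. For peaks among the first 5623 of all replicates, the counts were 46 of 3145, 35 of 3176 and 43 of 3136. These are 1.46, 1.1 and 1.37%.

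**Figure D5:**
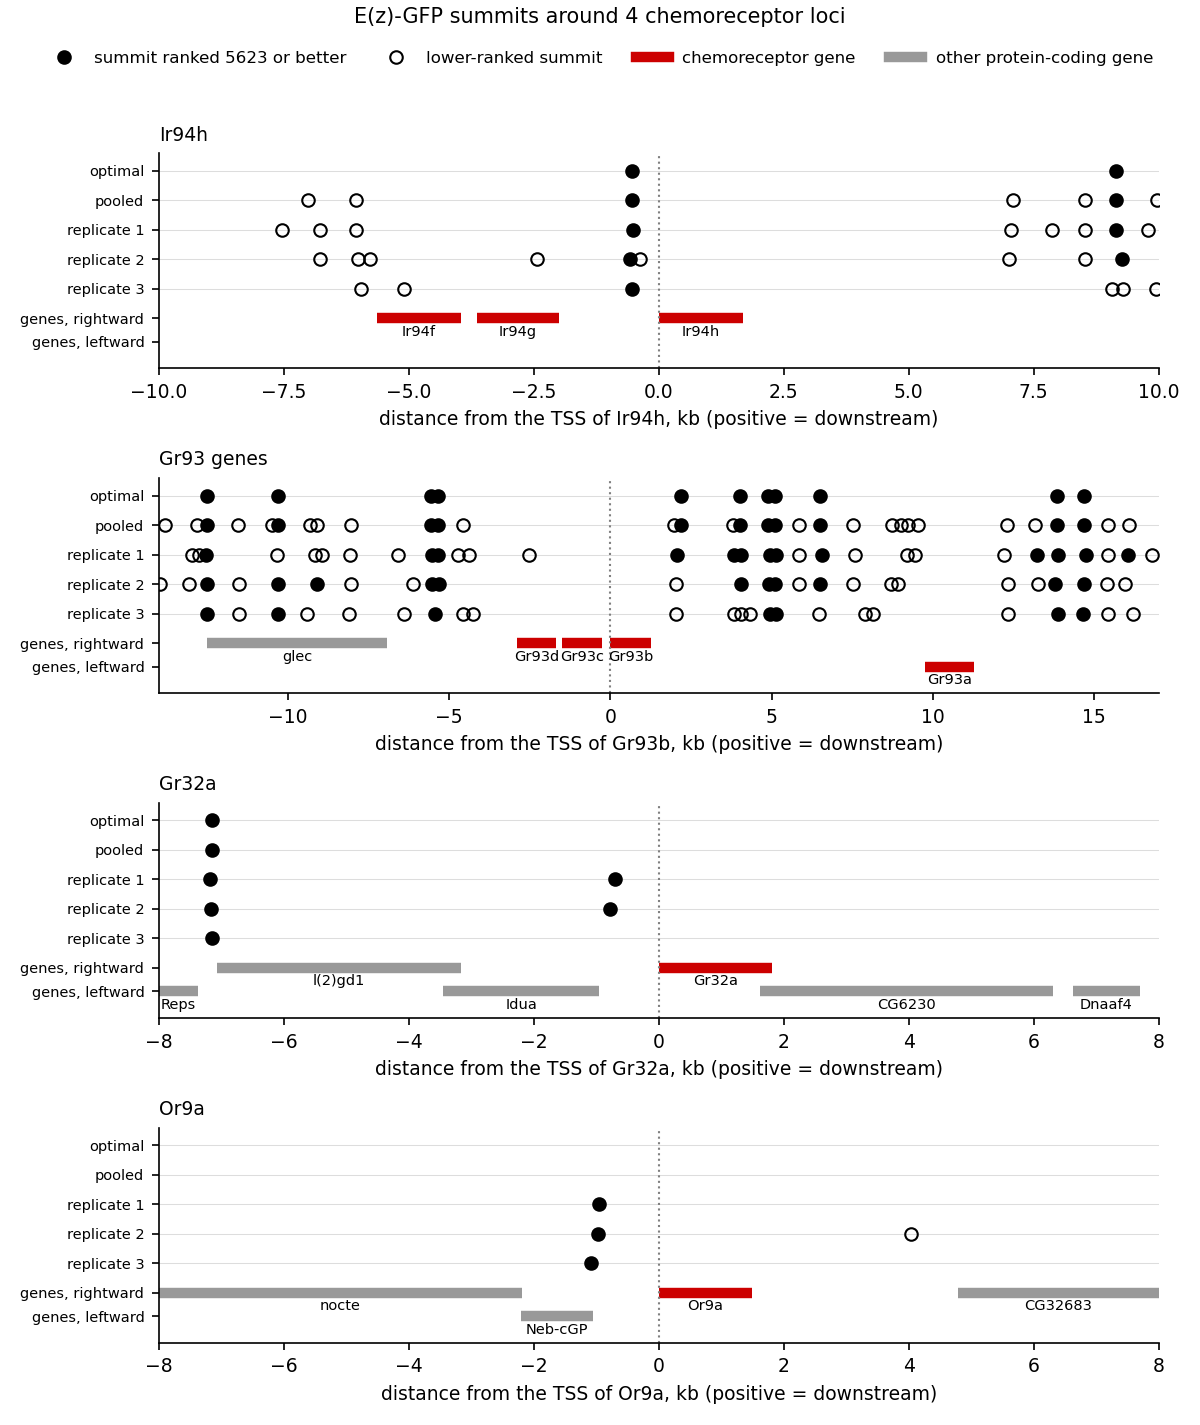
Summits around Ir94h, the Gr93 genes, Gr32a and Or9a, as distance in kb from the TSS of the named gene (Gr93b for the Gr93 genes), with 1 row for each peak list and the genes below. Filled circles are summits ranked 5623 or better and open circles lower ones; Ir94h has a filled summit in every row near 540 bp upstream, the Gr93 summits lie between and beyond the genes, and the peaks next to Gr32a and Or9a are in replicate rows only.

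The DNA at receptor gene starts was compared by the 4 words of Polycomb response elements. In windows from 250 bases before to 50 bases after the gene start, on either strand, GAGAG was present in 20.6% of receptor genes, 29.7% of all genes and 42.1% of the 300-base windows around optimal summits. It was present in 26.7% of odorant, 21.7% of gustatory and 13.3% of ionotropic receptor genes. GTGTGTG was present in 3.89% of receptor genes, 6.92% of all genes and 12.6% of summit windows, and TGAGTG in 15.0, 11.9 and 17.1%. GCCAT went the other way, with 51.1% of receptor genes, 41.2% of all genes and 39.6% of summit windows. The median GC content of the start windows was 39.3% for receptor genes and 38.0% for all genes. Over all genes the share with an optimal summit went from 10.6% to 22.0% between the lowest and the highest of 5 bins of GC content. From low to high, the bins held 18, 31, 45, 57 and 29 receptor genes, of which 1, 1, 0, 2 and 0 had an optimal summit. The part of base composition in the counts was not tested.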

How the data were processed

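Peaks of E(z)-GFP in 3 biological replicates of whole prepupae were analysed from the dm6 lists that the authors deposited: 30000 relaxed peaks per replicate, 30000 from the pooled replicates and 5623 in an optimal list, all of which are in the pooled list. The lists' names give the irreproducible discovery rate (IDR) as the method behind the optimal list. For the aligner, the peak caller, their versions and the signal scaling, nothing was found: not given in the sources used here. Deposited by the authors, these signal values only ranked peaks within a list. The authors' deposited −log10 q-values were described only. Summits were placed as the deposited start plus the offset column. The dm3 lists were not used here.

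Genes and 19607 TSSs came from Ensembl release 115 and sequence from RefSeq. All 180 members have the same coordinates in both. Gene distances, ranks and words were computed with Python 3.11.15, pandas 2.3.3 and numpy 2.4.6, exact binomial intervals with scipy 1.17.1, and the distance functions were tested on simulated data. An optimal peak counted as present in a replicate if 1 of the 5623 highest-signal peaks there covered its summit. No test was run and no p-value computed, since there is 1 group. Nothing shows how far the 3 replicates are independent beyond their label as biological replicates.

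The members, gene lists and comparisons were chosen with earlier results of these data known. Named genes were the members with an optimal summit, the 20 with the highest pooled rank, the 3 closest beyond 1 kb, the co-receptor, carbon dioxide and sugar receptor genes, and up to 4 of each other list by optimal signal; others are said to be picked after their values were seen. Alternatives were other distances, list lengths, gene assignments, annotations and left-out replicates.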

Additional observations from a re-analysis of the deposited data

How the results depend on the processing

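In all 26 settings with a count over all genes, the main ones included, the share of receptor genes stayed below that of all genes. RefSeq start sites, assignment to the nearest gene only, and the gene body with 1 kb upstream left the optimal count at 4 and the pooled count at 21 to 24. The shares of all genes there were 12.9 to 19.1% and 30.0 to 38.1%. RefSeq gives the same coordinates as Ensembl for all 180 receptor genes and for 13933 of 13934 genes with a shared symbol. The RefSeq settings, counted among the 26, thus repeat the main ones and are no separate check. Other limits moved the counts. Within 500 bp, 2 receptor genes had an optimal and 10 a pooled summit (1.11 and 5.56%), beside 13.4 and 29.6% of all genes. Within 5 kb the counts were 24 and 100 (13.3 and 55.6%), beside 32.0 and 60.3% of all genes. The 2811 highest-signal optimal peaks gave 1 gene, beside 9.91% of all genes. The 3141 found in all 3 replicates also gave 1, beside 10.1%. Leaving out a replicate gave 1 to 2, beside 11.0% of all genes at the lowest. These lists are shorter than the optimal list, and the share of all genes fell with them from 16.1%. The first 15000 pooled peaks gave 10, beside 26.6% of all genes. The mean count over replicates was 0.67 with the first 1000 peaks, 26.0 with all relaxed peaks, 0.67 within 500 bp, 27.33 within 5 kb, and 4.0 to 5.0 without a replicate. In the same order, the mean share of all genes was 4.74, 39.7, 14.9, 34.8, and 16.8 to 18.3%. The median distance was 35819.5 bp with the 2811 highest-signal peaks and with those found in all 3, and 28758.5 to 35819.5 bp without a replicate, each from a shorter list; over all genes it was 17021 bp for peaks found in all 3. Summits assigned to a receptor gene were 21 at any distance and 1 to 2 without a replicate. Receptor genes with a close neighbour and a pooled summit were 7 with neighbours up to 2 kb (8.64%, beside 31.4% of all such genes). With the optimal list and neighbours up to 1 kb they were 0, beside 18.4%. No paired analysis was possible because there is 1 group. Depth is unknown, so a gene without a peak is not shown to be unbound.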
